A study of Mus musculus with 8 samples.

Results

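The receptors of the interleukin-1 family were followed through resting and activated regulatory T (Treg) cells of mice with and without Foxp1, a forkhead transcription factor. The 6 genes were chosen by symbol from the 27594 genes counted: Il1rl1, which encodes ST2, the receptor for IL-33, Il1r1 and Il1r2, the signaling and the decoy receptor for IL-1, Il1rap, the co-receptor shared by ST2 and the IL-1 receptor, and Il18r1 and Il18rap, the chains of the IL-18 receptor. Il1rl1 had been picked because its genotype difference pointed in opposite directions in the 2 subsets, so its levels in the 4 groups are given as a description and its genotype differences carry no test. RNA sequencing covered 8 libraries, 2 in each of 4 groups, from CD4+YFP+ Treg cells sorted from spleen and peripheral lymph nodes of C57BL/6 mice aged 6 to 8 weeks. WT rTreg cells (CD44 low) and WT aTreg cells (CD44 high) came from Foxp3-YFP-Cre mice. Foxp1-deficient rTreg and aTreg cells came from Foxp1fl/fl Foxp3-YFP-Cre mice and were sorted through the same gates. All groups thus carried the Cre, which is driven from the Foxp3 locus and deletes Foxp1 in cells that express or have expressed Foxp3. CD44, encoded by Cd44, was used in the sort and is no finding between subsets.

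Receptors of this family share an intracellular TIR domain, and a ligand-binding chain pairs with an accessory chain to recruit MyD88 and IRAK kinases and to activate NF-κB and MAP kinases. Il1r2 lacks that domain and takes up IL-1 without signaling. In Treg cells ST2 marks activated and tissue-resident cells that respond to IL-33, an alarmin released by damaged cells, and the IL-18 receptor is known from Treg cells that express T-bet and CXCR3. Il1rl1 gives rise to a membrane form and to a soluble form that binds IL-33 as a decoy. The counts are per gene, and GENCODE lists 5 transcripts of Il1rl1, so the 2 forms were not separated.

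Except for Il1rap, on chromosome 16, the receptors lie in 1 cluster on the plus strand of mouse chromosome 1 (GRCm38, the mm10 build of the files), 5 of the 6 genes within 478 kb. In the order of the chromosome these are Il1r2 (chr1:40074079-40125231), Il1r1 (chr1:40225080-40317257), the IL-36 receptor gene Il1rl2 (chr1:40324610-40367562), Il1rl1 (chr1:40429570-40465415), Il18r1 (chr1:40465552-40500854) and Il18rap (chr1:40515362-40551705). Il1rap spans chr16:26581704-26730117. Only 136 bases separate the annotated end of Il1rl1 from the start of Il18r1. RefSeq gives Il1rl1 a distal start, at the annotated start of the gene, and a proximal start within it. The 250 bases before each of them are shown from RefSeq (GRCm38.p6, plus strand), with those before Il1rl2 and Il18rap, since these neighbors rose in Foxp1-deficient rTreg cells, where Il1rl1 was lower. Capitals mark the forkhead core TAAACA, the letters typical of Fox factors, and the GATA core AGATAA, each searched on both strands.
Il1rl1 distal, chr1:40429320-40429569: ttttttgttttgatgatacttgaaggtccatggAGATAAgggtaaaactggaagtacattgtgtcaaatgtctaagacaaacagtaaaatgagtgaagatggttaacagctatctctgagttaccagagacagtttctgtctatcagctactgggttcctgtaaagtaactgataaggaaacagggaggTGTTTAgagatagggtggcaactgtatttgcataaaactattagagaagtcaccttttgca
Il1rl1 proximal, chr1:40439379-40439628: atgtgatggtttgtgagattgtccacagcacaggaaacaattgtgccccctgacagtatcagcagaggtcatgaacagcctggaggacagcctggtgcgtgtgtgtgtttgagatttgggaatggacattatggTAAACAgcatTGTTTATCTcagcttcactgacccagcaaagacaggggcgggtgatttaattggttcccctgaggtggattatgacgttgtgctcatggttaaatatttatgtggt
Il1rl2, chr1:40324339-40324588: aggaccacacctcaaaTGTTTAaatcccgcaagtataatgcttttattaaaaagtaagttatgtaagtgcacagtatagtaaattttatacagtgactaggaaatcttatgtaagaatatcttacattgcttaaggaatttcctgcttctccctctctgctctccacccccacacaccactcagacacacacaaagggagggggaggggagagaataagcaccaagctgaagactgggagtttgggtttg
Il18rap, chr1:40515112-40515361: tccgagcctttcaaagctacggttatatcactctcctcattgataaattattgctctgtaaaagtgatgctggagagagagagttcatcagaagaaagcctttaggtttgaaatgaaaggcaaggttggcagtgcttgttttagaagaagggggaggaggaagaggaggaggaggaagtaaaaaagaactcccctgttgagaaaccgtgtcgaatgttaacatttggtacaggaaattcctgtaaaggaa

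Both windows of Il1rl1 held the forkhead core, in 1 match before the distal start and in 2 before the proximal start. Both also held 1 GATA core. Before the proximal start, the GATA core on the minus strand overlapped the second forkhead core. The Il1rl2 and Il1r2 windows each held 1 forkhead core, and those of Il1r1, Il1rap, Il18r1 and Il18rap held neither core. The AP-1 letters TGANTCA were in none of the members' windows. Of 32851 RefSeq windows of this length, 12.0% held the forkhead core, 9.99% the GATA core and 6.75% the AP-1 letters. A match of letters shows no binding, and no binding was measured here.

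The library totals ranged from 6373170 to 15268623 counted reads. At these totals 3 reads corresponded to 0.196 to 0.471 CPM (reads scaled to a common library total), a range of depth, not error. Libraries with replicate number 2 held 15098 to 21822 reads of Xist and those with number 1 at most 3, so sex goes with the replicate number. Reads of Y-linked genes numbered 2303 to 4575 in the libraries with number 1. Among those with number 2 they were 430 and 279 in WT rTreg and aTreg cells against 42 and 38 in the Foxp1-deficient ones, a difference whose part in the results was not tested. Levels are given as CPM scaled by TMM factors, and levels of different genes are compared by the FPKM of the files, which divide by gene length. Foxp1 itself was counted over the whole gene. In aTreg cells its level was 234 and 230 CPM in the WT against 126 and 102 CPM in the Foxp1-deficient libraries, a log2 difference of -1.03 ± 0.096 (SE, n = 2 per group, edgeR adjusted p = 0.00194). In rTreg cells it was 353 and 384 against 342 and 338 CPM (log2 difference -0.12, edgeR adjusted p = 0.46), so the whole-gene count does not check the genotype labels of the rTreg libraries. The deleted exons were not analysed here. With sex differing between the 2 replicates of each group, these were largely RNA of different animals, but no source says how many animals entered a library. The T and Treg cell markers Cd3e, Cd3g, Cd4, Foxp3, Il2ra, Ctla4 and Ikzf2 summed to 3162 to 4741 CPM in every library. The markers of mast cells and basophils, which also carry ST2, summed to 3.04 to 5.45 CPM, and Fcer1a, Ms4a2 and Mcpt8 had at most 1 read in any library. In the RNA of sorted cells, fewer cells that express a gene and less RNA per cell cannot be told apart.

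Il1rl1 transcripts were at opposite ends of the scale in resting and activated cells. The level was 4.70 and 5.81 CPM in WT rTreg cells and 1.43 and 1.52 CPM in Foxp1-deficient rTreg cells, from 51, 74, 9 and 21 reads. In aTreg cells it was 45.9 and 86.4 CPM in the WT and 87.8 and 160 CPM in the Foxp1-deficient libraries. The libraries of no group overlapped those of another, though the highest WT aTreg and the lowest Foxp1-deficient aTreg library lay close together. Ordered by level, Foxp1-deficient rTreg cells came first, then WT rTreg and WT aTreg cells, with Foxp1-deficient aTreg cells highest, and the last 2 neighbors, at 66.1 ± 28.6 and 124 ± 50.9 CPM (mean ± SD, n = 2), did not differ beyond the spread of their libraries taken unpaired. In both aTreg groups the library of replicate 2 was higher than that of replicate 1, 1.88-fold in WT and 1.82-fold in Foxp1-deficient cells, against 1.24-fold and 1.06-fold in rTreg cells. Sex and any other difference between the replicate numbers cannot be told apart.

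**Figure D1:**
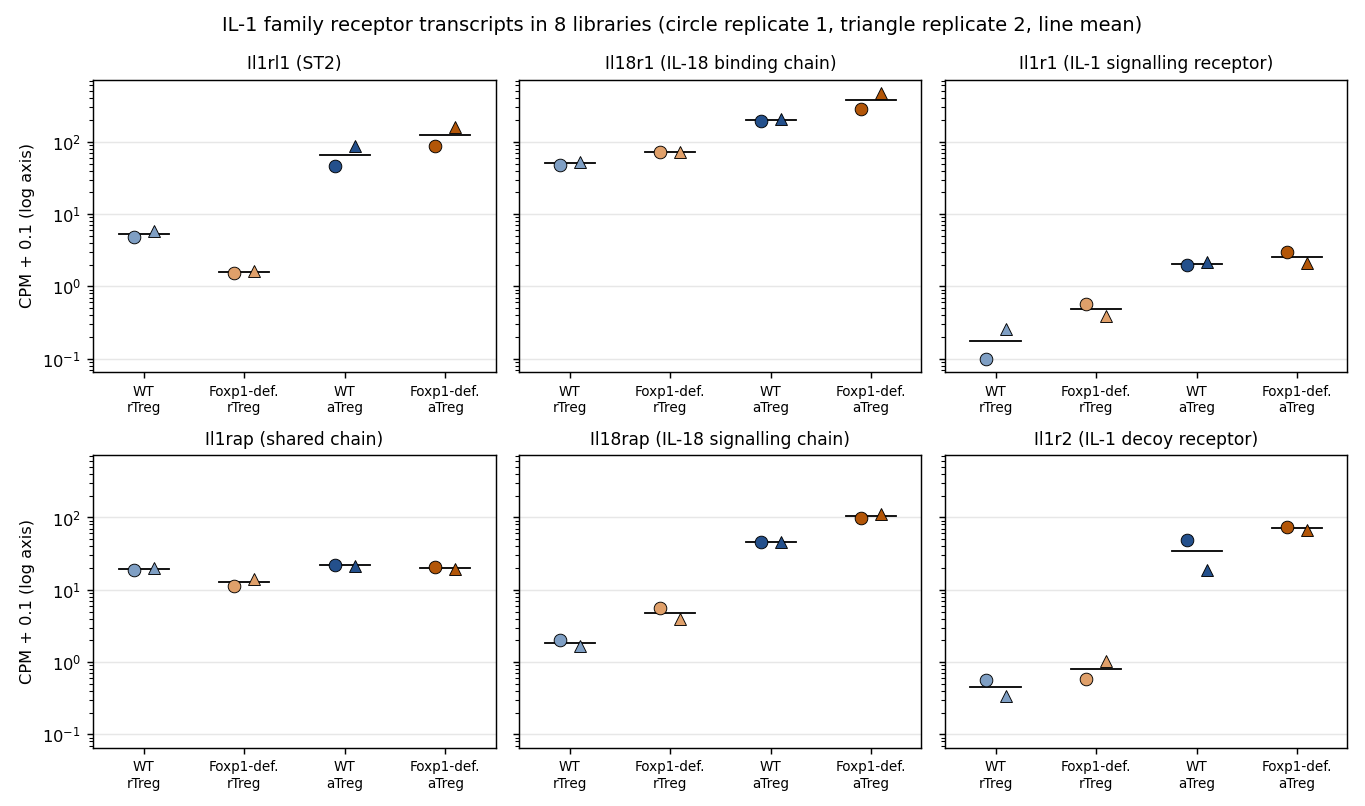
Level of each receptor gene in all 8 libraries, as CPM + 0.1 on a log axis (circle replicate 1, triangle replicate 2, line the group mean). Il1rl1 was 4.70 and 5.81 CPM in WT and 1.43 and 1.52 CPM in Foxp1-deficient rTreg cells and stood at 45.9 to 160 CPM in aTreg cells, whereas Il1rap stayed between 11.3 and 22.2 CPM in all groups.

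The genotype comparison asks what loss of Foxp1 changes within each subset. In rTreg cells Il1rl1 was 3.83-fold lower without Foxp1 (log2 difference -1.94 ± 0.27, SE), with log2 ratios of -1.71 and -1.94 in the 2 replicate pairs. In aTreg cells it was 1.87-fold higher (0.91 ± 0.11, SE), with 0.94 and 0.89 in the pairs. Both pairs are among the values that chose the gene, so their likeness is no support for it. The Foxp1-deficient rTreg values rest on 9 and 21 reads. The difference between the aTreg and the rTreg value was 2.84 ± 0.29 on the log2 scale. These values chose the gene and were not tested. Leaving out 1 library at a time gave -2.29 to -1.42 in rTreg and 0.81 to 1.03 in aTreg cells. On the log2(FPKM + 1) scale, which understates changes of low genes, the rTreg value was -0.54.

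Il1rap, the chain ST2 needs for signaling, fell in Foxp1-deficient rTreg cells and did not pass the test in aTreg cells. It was 18.6 and 20.03 CPM in WT and 11.3 and 14.0 CPM in Foxp1-deficient rTreg cells. The log2 difference was -0.59 ± 0.13 (SE, n = 2 per group, edgeR adjusted p = 0.0306), 1.504-fold and just past the 1.5-fold limit. In aTreg cells the level was 22.2 and 20.96 against 20.3 and 19.5 CPM (-0.11 ± 0.12, edgeR adjusted p = 0.641). Without the replicate block the rTreg call was lost (adjusted p = 0.0935), as it was in limma-voom by size alone (log2 difference -0.57). The 2 effects were not shown to differ (difference 0.48 ± 0.18, edgeR adjusted p = 0.33).

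Per length, Il1rap transcripts outnumbered those of Il1rl1 in resting cells and were outnumbered in activated ones. The ratio of Il1rap to Il1rl1 FPKM was 2.40 and 2.09 in WT rTreg cells and 4.79 and 5.61 in Foxp1-deficient rTreg cells. In aTreg cells it was 0.293 and 0.147 with Foxp1 and 0.140 and 0.0740 without. The libraries of the 2 subsets did not overlap in this ratio.

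Of the IL-18 receptor chains, Il18rap rose without Foxp1 in both subsets and Il18r1 in aTreg cells. Il18rap, the accessory chain, rose from 1.93 and 1.57 CPM in WT to 5.42 and 3.83 CPM in Foxp1-deficient rTreg cells (log2 difference 1.33 ± 0.25, SE, n = 2 per group, edgeR adjusted p = 0.017). These levels rest on 21, 20, 34 and 53 reads. Among aTreg cells Il18rap rose from 46.0 and 45.0 to 97.2 and 112 CPM (1.20 ± 0.11, edgeR adjusted p = 0.00202). In both subsets the groups did not overlap, which 2 libraries per group can give without a difference. The share of all genes without overlap is not given here. The genotype difference in aTreg cells was that in rTreg cells plus -0.12 ± 0.27 (interaction, edgeR adjusted p = 0.955).

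Il18r1, the ligand-binding chain, rose in Foxp1-deficient aTreg cells from 193 and 207 to 287 and 472 CPM (0.90 ± 0.15, edgeR adjusted p = 0.0167). The Foxp1-deficient libraries differed 1.64-fold between replicates, and the pairs gave log2 ratios of 0.57 and 1.19. Without the replicate block the adjusted p of Il18r1 in aTreg cells was 0.129. In rTreg cells Il18r1 was 48.0 and 52.2 CPM in WT and 72.5 and 72.4 CPM in Foxp1-deficient libraries. The difference did not pass the test over all genes (0.53 ± 0.16, edgeR adjusted p = 0.0771).

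Il1r2, the IL-1 decoy, had few reads outside the aTreg libraries. It rose from 48.9 and 18.8 CPM in WT to 74.4 and 67.3 CPM in Foxp1-deficient aTreg cells (1.20 ± 0.26, SE, n = 2 per group, edgeR adjusted p = 0.0376). The WT libraries stood 2.60-fold apart, with replicate 1 the higher one, and the pairs gave unequal log2 ratios of 0.60 and 1.84. The call was lost without the replicate block (adjusted p = 0.321), in DESeq2 (0.309), without either replicate 2 library of aTreg cells (log2 differences 0.59 and 0.69), and by little without any 1 rTreg library (adjusted p = 0.0557 to 0.0662). Neutrophils are known to carry Il1r2. The 9 markers of myeloid cells and neutrophils summed to 8.46 to 10.2 CPM in the WT and to 36.8 and 7.62 CPM in the Foxp1-deficient aTreg libraries, so replicate 1 was above and replicate 2 below both WT libraries. Without Foxp1-deficient aTreg replicate 1, which leaves 1 library in that group, the Il1r2 difference was 1.74. The pair left whole, that of replicate 2, already had the larger ratio. The part of these markers in the difference over all libraries was not tested. In rTreg cells Il1r2 had 3 to 13 reads in a library and no difference passed the test (edgeR adjusted p = 0.466).

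Il1r1, the signaling receptor for IL-1, was the rarest of the 6. It had 0 and 2 reads in WT rTreg, 3 and 4 in Foxp1-deficient rTreg, 17 and 32 in WT aTreg and 34 and 28 in Foxp1-deficient aTreg libraries. In aTreg cells that was 1.87 and 2.05 against 2.85 and 2.01 CPM, with overlapping groups (0.27 ± 0.38, edgeR adjusted p = 0.73). A genotype difference was not detectable at this depth in either subset.

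Of the 5 receptors other than Il1rl1, 2 were called in rTreg cells at an adjusted p under 0.05 and 1.5-fold (Il18rap higher, Il1rap lower), beside 5.6% of all 14540 genes tested (2.9% higher and 2.7% lower). In aTreg cells 3 were called, all higher (Il1r2, Il18r1 and Il18rap), beside 4.03% of all genes called (2.37% higher and 1.66% lower). Without the replicate block 1 remained in each subset, which was Il18rap in both. Leaving out any 1 of the 4 rTreg libraries left 0 rTreg calls, with the same directions. The adjusted p of Il18rap was then 0.0516 to 0.124 and that of Il1rap 0.0926 to 0.178 (edgeR). The aTreg calls fell to 1, Il18rap, without WT aTreg replicate 2 and without Foxp1-deficient aTreg replicate 2. No interaction of the 5 was called by edgeR, beside 0.323% of all genes (0.179% higher and 0.144% lower), nor by any other tool run. At an unadjusted p under 0.05 there was 1, Il1rap, with no share over all genes given here.

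**Figure D2:**
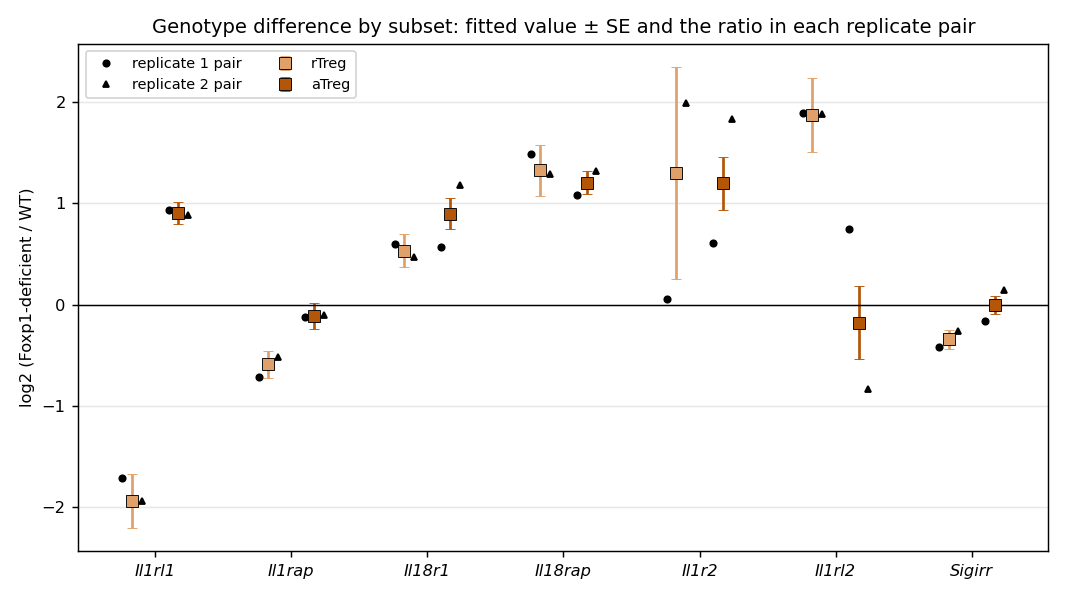
Genotype difference (log2 of Foxp1-deficient over WT) of 5 receptors, of Il1rl2 and of Sigirr in rTreg and aTreg cells, as the fitted value ± SE with the ratio in each replicate pair. Il1rl1 stood at -1.94 in rTreg and at 0.91 in aTreg cells, Il18rap at 1.33 and 1.20, and Il1rl2 at 1.87 in rTreg cells, with pairs on both sides of 0 in aTreg cells.

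The subset comparison asks how activated Treg cells differ from resting ones of the same genotype. Among WT cells, Il1rl1 was 12.4-fold higher in aTreg cells (log2 difference 3.64 ± 0.15, SE, n = 2 per group, edgeR adjusted p = 6.47e-06). Its WT levels also entered the genotype differences that chose the gene, so this p is not independent of that choice. Il18rap was 25.97-fold higher (4.70 ± 0.18, edgeR adjusted p = 5.50e-06) and Il18r1 4.01-fold higher (2.00 ± 0.16, edgeR adjusted p = 0.000103). Il1rap differed by less than the test could separate (0.15 ± 0.13, edgeR adjusted p = 0.391). Il1r1 and Il1r2 passed the filter on low counts only through the aTreg libraries, so these 2 had to differ. Il1r1 was at least 7.65-fold higher in WT aTreg cells against a floor of 3 reads per library. Il1r2 had 5 and 3 reads in WT rTreg and 446 and 294 in WT aTreg libraries, a ratio of 91.4 with a counting interval of 46.1 to 213 (exact binomial, 95%, pooled reads). Of the 4 receptors that also passed on the rTreg libraries alone, Il1rl1, Il18r1 and Il18rap rose and Il1rap did not pass. Over all genes 12.3% were called (9.5% higher and 2.83% lower), those that passed only through the aTreg libraries included.

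Among Foxp1-deficient cells the steps were as follows. Il18rap was 23.9-fold (4.58 ± 0.15, SE, edgeR adjusted p = 2.27e-06) and Il18r1 5.16-fold (2.37 ± 0.16, edgeR adjusted p = 3.28e-05) higher in aTreg cells. Il1rap was 1.55-fold higher (0.63 ± 0.13, edgeR adjusted p = 0.00716), under the 2-fold limit for subsets. Il1r1 rose from 3 and 4 to 34 and 28 reads, a ratio of pooled CPM of 7.14 with a counting interval of 3.27 to 18.5. Il1r2 rose from 3 and 13 to 887 and 936 reads, a ratio of 91.9 with an interval of 56.4 to 161. In this comparison 15.7% of all genes were called (11.3% higher and 4.39% lower). Il1rl1 was 89.3-fold higher, a value that contains both of the genotype differences it was picked for and was not tested.

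Summed per length, the receptors changed in make-up as well as in level. Their FPKM summed to 12.9 and 13.5 in WT rTreg and to 17.1 and 16.9 in Foxp1-deficient rTreg cells. In aTreg cells the sums were 83.8 and 75.9 with Foxp1 and 132 and 172 without. Il18r1 was the most abundant receptor in every library. It took 77.8% and 78.4% of the sum in WT rTreg and 86.6% and 85.5% in Foxp1-deficient rTreg cells, and 46.6% to 58.0% in the aTreg libraries. Il1rl1 took 5.32% and 6.10% in WT rTreg, 1.20% and 1.25% in Foxp1-deficient rTreg and 8.16% to 16.9% in aTreg libraries. Il1r2 took 13.3% to 31.5% in aTreg libraries and at most 2.80% in rTreg libraries. The IL-18 receptor chains drew closer in activated cells. The FPKM of Il18r1 was 34.8 and 46.5 times that of Il18rap in WT rTreg cells and 18.8 and 26.5 times in Foxp1-deficient rTreg cells. In aTreg cells it was 5.90 and 6.46 times with Foxp1 and 4.14 and 5.89 times without. The decoy Il1r2 exceeded the signaling receptor Il1r1 30.6 to 111 times per length in aTreg libraries.

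**Figure D3:**
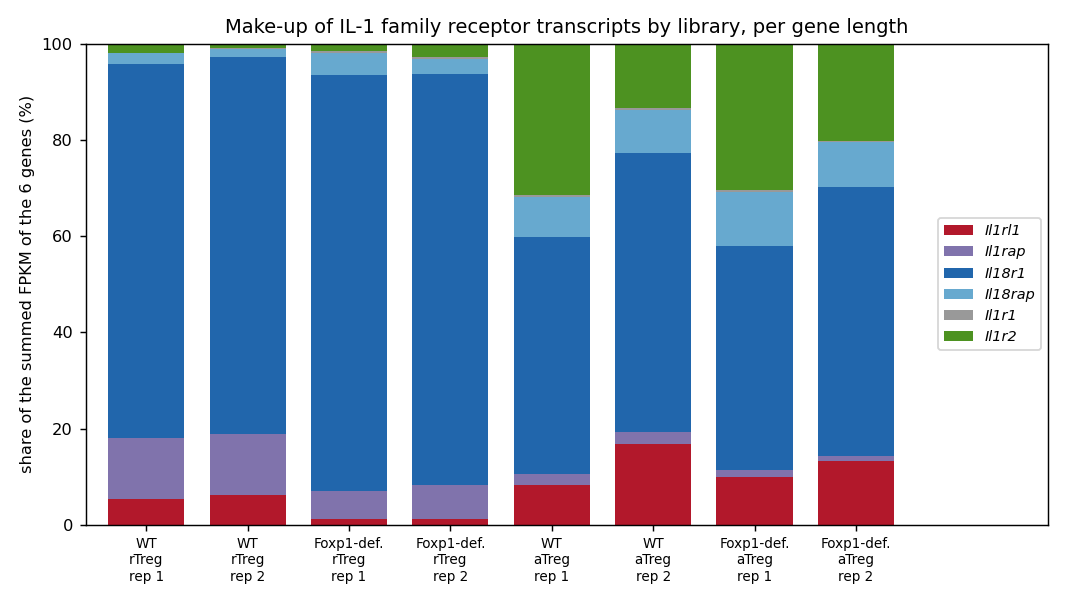
Share of each receptor in the summed FPKM of the 6 genes, in percent, by library. Il18r1 took 77.8% to 86.6% in rTreg and 46.6% to 58.0% in aTreg libraries, where Il1r2 and Il1rl1 made up most of the rest.

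Among other genes of the receptor family, Il1rl2 moved against Il1rl1 in rTreg cells. It was 3.87 and 2.75 CPM in WT and 14.3 and 10.1 CPM in Foxp1-deficient rTreg cells, 3.65-fold higher (log2 difference 1.87 ± 0.36, SE, n = 2 per group, edgeR adjusted p = 0.0187). In aTreg cells it was 3.40 and 6.41 against 5.70 and 3.59 CPM, with the pairs on both sides of 0 (-0.18 ± 0.36, edgeR adjusted p = 0.823). The difference between the 2 effects did not pass (edgeR adjusted p = 0.152). Sigirr, a receptor known to dampen IL-1 family signals, was 175 and 148 CPM in WT and 131 and 123 CPM in Foxp1-deficient rTreg cells (-0.34 ± 0.091, edgeR adjusted p = 0.0485), below the 1.5-fold limit. Il1rapl1 had at most 1 read in a library, and of the 4 genes listed 2 were tested.

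Within 500 kb of the cluster 11 genes were tested, the receptors included. Of the protein-coding neighbors Rnf149, Map4k4, Il1rl2 and Mfsd9, Il1rl2 alone was called for genotype, in rTreg cells. The antisense gene Gm16894 and the unclassified gene Gm37347 overlap Il1r2, and the library kit does not mark strand, so their reads and those of Il1r2 cannot be told apart where they overlap. Within the cluster the rTreg differences thus ran from -1.94 for Il1rl1 to 1.87 for Il1rl2 over a short stretch, and Il18r1, which starts 136 bases past the end of Il1rl1, had 0.53. In aTreg cells Il1r2, Il1rl1, Il18r1 and Il18rap all had values between 0.90 and 1.20, while Il1r1 had 0.27 and Il1rl2 -0.18.

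**Figure D4:**
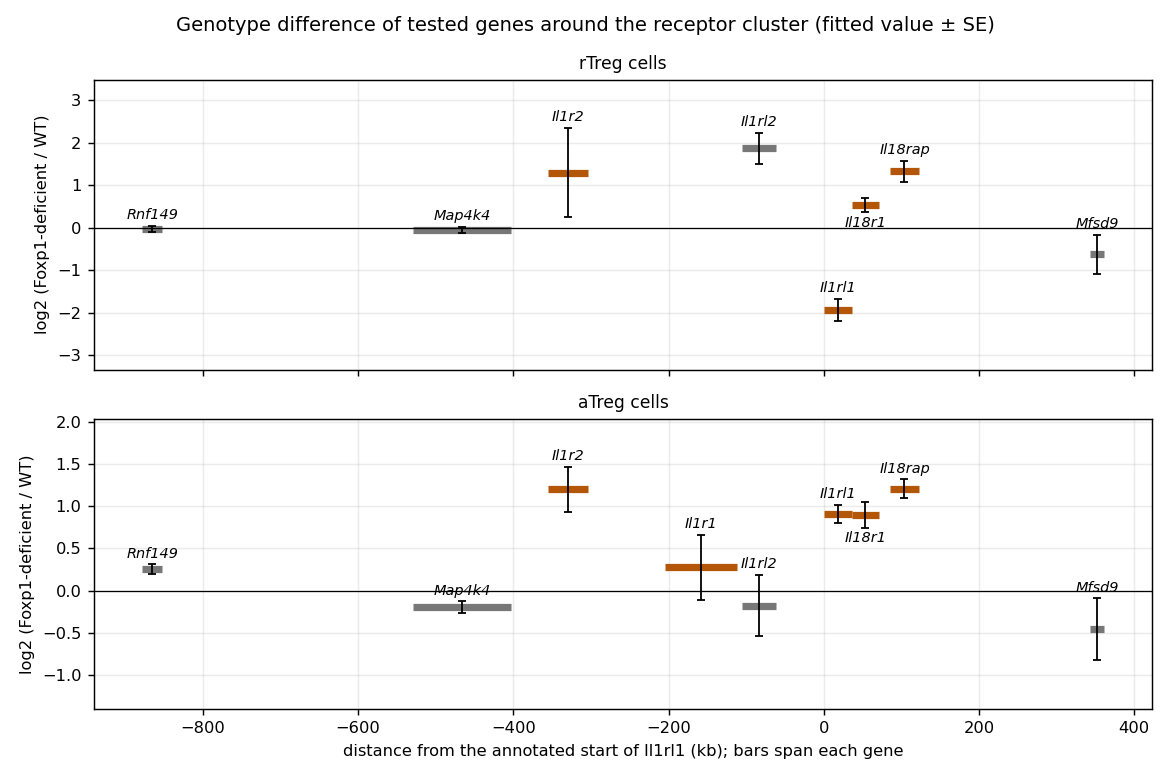
Genotype difference (log2 of Foxp1-deficient over WT, fitted value ± SE) of tested genes against the distance in kb from the annotated start of Il1rl1, receptors in orange and neighbors in gray (Il1r1 is left out in rTreg cells, where it is near the floor, and the Gm genes that overlap Il1r2 in both). In rTreg cells Il1rl1 (-1.94) lies below 0 between Il1rl2 (1.87) and Il18r1 (0.53), and in aTreg cells Il1r2, Il1rl1, Il18r1 and Il18rap lie between 0.90 and 1.20.

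The cytokines of the family were hardly transcribed in these cells. Of 11 listed ligands and antagonists 7 were in the files and 2 were tested, Il18 and its soluble binding protein gene Il18bp. Il33 had at most 1 read in a library, Il1b at most 4 and Il1a at most 7. Il18 had at most 1 read in rTreg and 11 to 17 reads in aTreg libraries, at least 4.52-fold higher in WT aTreg cells. It passed the filter on low counts only through the aTreg libraries and had to differ. Il18bp had 9.30 to 14.3 CPM over all libraries, and neither gene was called for genotype.

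Adaptors and kinases relay the signal of these receptors. Of 26 genes from Myd88 to Mapk14, none was called by edgeR in rTreg cells for genotype and 1, Irak3, in aTreg cells, beside 5.6% and 4.03% of all genes. Below the 1.5-fold limit, Irak2 (-0.51, adjusted p = 0.018), Myd88 (0.36, adjusted p = 0.0213) and Peli1 (-0.22, adjusted p = 0.0485, all edgeR) passed the adjusted p in rTreg cells. At an unadjusted p under 0.05 there were 11 in rTreg and 5 in aTreg cells, with no share over all genes given here. Irak3, an IRAK family member known to restrain signaling, fell from 4.50 and 5.71 to 2.51 and 2.37 CPM (-1.06 ± 0.23, SE, n = 2 per group, edgeR adjusted p = 0.0355). It was also lower in WT aTreg than in WT rTreg cells (-1.04 ± 0.20, edgeR adjusted p = 0.00587). Peli3, an E3 ligase gene, had 6 and 2 reads in WT rTreg and 20 and 33 in WT aTreg libraries and passed the filter only through the latter. The median log2 genotype difference of the list was -0.01 in rTreg and 0.02 in aTreg cells, beside 0.0029 and 0.0018 over all genes. Of 7 genes for ligand processing and receptor shedding, 6 were tested. The inflammatory caspases Casp1 and Casp4 rose in Foxp1-deficient aTreg cells (0.85 ± 0.18, adjusted p = 0.0328, and 0.90 ± 0.13, adjusted p = 0.0105, both edgeR). Over all genes 2.37% were called higher there. From rTreg to aTreg cells they rose by 2.15 and 2.45 in the WT (edgeR adjusted p = 0.000251 and 4.17e-05), beside 9.5% of all genes called higher. In Foxp1-deficient cells they rose by 2.90 and 3.11, beside 11.3%. Both subset shares include genes that passed the filter only through the aTreg libraries. Casp1 processes pro-IL-18 and pro-IL-1β. Adam10 and Adam17, which encode proteases that shed surface receptors, were not called. Below the 2-fold limit, both were higher in WT aTreg than in WT rTreg cells (0.52, adjusted p = 0.00127, and 0.30, adjusted p = 0.014, both edgeR). The steps in Foxp1-deficient cells were 0.50 and 0.30 (edgeR adjusted p = 0.00106 and 0.0113).

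Of 16 genes known with ST2 in Treg cells 14 were tested. Klrg1, Il10 and Pparg passed the filter on low counts only through the aTreg libraries and had to differ. Of the other 11, 10 rose from rTreg to aTreg cells in the WT by the 2-fold rule, beside 9.5% of all genes called higher. The median log2 difference of the 11 was 2.47 beside -0.0046 over all genes. Both values over all genes include those that passed only through the aTreg libraries. Of these 11, the exception was Gata3, a factor known to bind at Il1rl1. It was 124 and 93.9 CPM in WT rTreg and 249 and 186 CPM in WT aTreg cells. That was 1.996-fold higher, just under the 2-fold limit (0.997 ± 0.068, SE, edgeR adjusted p = 4.65e-05). Between genotypes Gata3 differed by 0.38 in aTreg cells (edgeR adjusted p = 0.0185), below the 1.5-fold limit, and by -0.10 in rTreg cells (edgeR adjusted p = 0.375). Klrg1, an inhibitory receptor of activated cells, was at least 141-fold and Il10 at least 94.7-fold higher in WT aTreg cells. Tigit, another inhibitory receptor, was 166-fold and Pparg, a factor of tissue Treg cells, at least 6.09-fold higher. For genotype, 3 of the 14 rose in Foxp1-deficient aTreg cells, beside 2.37% of all genes: Klrg1 (1.15 ± 0.12, SE, edgeR adjusted p = 0.00282), Rora (0.71 ± 0.13, adjusted p = 0.0196) and Prdm1 (0.65 ± 0.13, adjusted p = 0.0277), where the list's median was 0.35 beside 0.0018 over all genes. In rTreg cells 1 of the 14 fell, beside 2.7% of all genes called lower. This was Maf, a factor known to act on Il10, from 32.5 and 39.8 to 18.3 and 20.2 CPM (-0.90 ± 0.13, edgeR adjusted p = 0.00639). The list's median in rTreg cells was 0.07, or 0.03 over the 11 genes above the floor.

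Of 7 genes known with the IL-18 receptor, Cxcr3, a chemokine receptor of T-bet expressing cells, rose like Il18rap in both subsets. It was 0.829 and 1.18 CPM in WT and 4.14 and 5.85 CPM in Foxp1-deficient rTreg cells (2.33 ± 0.35, SE, n = 2 per group, edgeR adjusted p = 0.00696). Among aTreg cells Cxcr3 rose from 108 and 98.5 to 198 and 279 CPM (1.19 ± 0.13, edgeR adjusted p = 0.00374). The other 6 were not called for genotype, and over all genes 2.9% were called higher in rTreg and 2.37% in aTreg cells. Ifng passed the filter only through the aTreg libraries. Of the other 6, Tbx21, Il12rb1 and Cxcr3 rose from rTreg to aTreg cells in the WT, beside 9.5% of all genes called higher. That share includes genes that passed only through the aTreg libraries. Tbx21 had only 6 and 11 reads in WT rTreg libraries. The list's median genotype difference was 0.31 in rTreg and 0.22 in aTreg cells.

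Within the aTreg gate the summed markers of activation were higher without Foxp1 and those of resting cells lower. The markers Cd44, Icos, Itgae and Klrg1 summed to 867 to 935 CPM in WT and 1049 to 1346 CPM in Foxp1-deficient aTreg cells. Icos, Itgae and Klrg1 were higher, whereas mean Cd44 went from 213 to 185 CPM (-0.21 ± 0.086, SE, edgeR adjusted p = 0.206). Markers of resting cells, Ccr7, Lef1 and Tcf7 among them, summed to 1176 to 1443 CPM in WT and 975 to 978 CPM in Foxp1-deficient aTreg cells. In rTreg cells the resting markers summed to 2582 to 2691 and 2361 to 2574 CPM. In rTreg cells the activation markers summed to 85.3 to 104 CPM in WT and 69.5 to 84.8 CPM in Foxp1-deficient cells. The markers of myeloid cells and neutrophils summed to 8.17 to 8.29 CPM in WT and to 13.6 to 21.5 CPM in Foxp1-deficient rTreg cells, where Mpo had 0 reads in both WT libraries. The part of these shifts in the receptor differences was not tested. B cell markers (7.92 to 21.2 CPM) and NK and CD8 T cell markers (11.3 to 19.4 CPM) stayed low in all libraries.

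The tested genes whose log2 CPM was most like that of Il1rl1 over the 8 libraries were Lrba (Pearson's r = 0.997), Plcb3 (0.994), Crmp1 (0.991), Kcna3 (0.991) and Pon3 (0.991). These correlations describe 8 libraries that share their groups and replicate numbers. Lrba, whose product keeps CTLA-4 from degradation, was 114 and 127 CPM in WT rTreg and 91.3 and 94.2 in Foxp1-deficient rTreg cells. In aTreg cells Lrba was 201 and 210 CPM with Foxp1 and 218 and 245 CPM without. Crmp1 had 9.12 and 8.17, 3.19 and 4.19, 62.8 and 60.4, and 69.7 and 91.6 CPM in the same order of groups. Both genes were lowest in Foxp1-deficient rTreg and highest in Foxp1-deficient aTreg cells, over a smaller range than Il1rl1. They were picked for their likeness to Il1rl1 over the same libraries, so this order is no separate result. In aTreg cells no genotype difference of the genes named here passed the test (edgeR adjusted p = 0.0652 to 0.959). The log2 differences there ran from 0.0089 for Kcna3 to 0.52 for Pon3, and for these genes the libraries of the genotypes overlapped. Among the receptors, Il1r2 came closest to Il1rl1 (r = 0.919, rank 908 of the genes tested), followed by Il18r1 (0.905), Il18rap (0.895), Il1r1 (0.827) and Il1rap (0.766).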

How the data were processed

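The deposited counts are whole reads per Ensembl gene in 8 libraries. Per the labels and the methods, the authors trimmed reads below Phred 20, removed duplicates with Picard, aligned to mm10 and counted with HTSeq. The submitters' processing notes name HISAT2 2.0.5. The FPKM deposited by the authors equal the count over the library total and 1 length per gene, with a relative spread of at most 1.19e-05 over 11394 genes. Duplicate removal can lower the counts of abundant genes.

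The counts entered edgeR 4.0.16 under R 4.3.3 (glmQLFit, glmQLFTest, TMM). The fit held 4 group means and the replicate number as a block, on the 14540 genes of 27594 that passed filterByExpr with a minimum of 10, and all 6 receptors passed. Calls needed a Benjamini-Hochberg adjusted p under 0.05 over all genes and 1.5-fold (genotype, interaction) or 2-fold (subset). The study's methods also used paired samples. Libraries of 1 replicate number deviated together, with correlations of 0.355 to 0.597 in the 6 pairs of groups. Errors are standard errors from the quasi-likelihood F. Alternatives used limma 3.58.1 (voom, and log2 of FPKM + 1 or 0.1), DESeq2 1.42.0, other factors and filters, and 1 library left out. The fitting steps were run on simulated counts with changes set only in Foxp1-deficient rTreg libraries and no subset difference. That run is no check of the calls made in these data. Receptors, lists and tests were chosen with earlier results of these data known. Named were all receptors, the 4 other family genes, called genes of each list (at most 4 per comparison by size), neighbors within 500 kb and the 5 genes most like Il1rl1 in log2 CPM (prior count 2). Gata3, Adam10, Adam17 and members at few reads were named after their values were seen. Protein sequences were not used here. One item is not reported here.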

Additional observations from a re-analysis of the deposited data

Results flagged for a closer look

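Il1rl1 had genotype differences of opposite sign in the 2 subsets. Both replicate pairs were lower without Foxp1 in rTreg cells (log2 ratios -1.71 and -1.94) and both were higher in aTreg cells (0.94 and 0.89), and the difference between the subsets was 2.84 on the log2 scale. The gene was picked for this pattern, so the difference was not tested.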

How the results depend on the processing

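With 2 libraries per group, the genotype calls depended on single libraries and on the replicate block. Low counts limit Il1r1, Il1r2 and Il18rap in rTreg cells, and the untested Il1rl1 value there. Of the 5 receptors tested, 2 were called for genotype in rTreg cells. The count was 1 without the replicate block, in limma-voom and on log2(FPKM + 0.1), 0 on log2(FPKM + 1) with or without a filter, and 0 to 2 with 1 library left out. In aTreg cells 3 were called, 1 without the replicate block and on log2(FPKM + 1), 0 on log2(FPKM + 0.1) and on log2(FPKM + 1) with no filter, 2 in DESeq2 and in the fit of the aTreg libraries alone, and 1 to 3 with 1 library left out. Over all genes the fit without the block called 159 genes higher and 107 lower in rTreg cells, against 421 and 393 with it, and 43 and 34 in aTreg cells, against 344 and 242. The interaction was called for 26 genes higher and 21 lower with the block, 0 without it (edgeR), and 126 and 73 in DESeq2. On log2(FPKM + 1) limma called 211 and 210 in rTreg, 171 and 107 in aTreg and 674 and 151 between WT subsets, the last against 1382 and 411. Dropping the block ended no other call of a receptor. Between subsets, the calls of Il18r1 and Il18rap in both genotypes and of Il1rl1 in WT cells stood in all 19 alternatives. The WT levels of Il1rl1 also entered the choice of that gene.

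Signs turned for values that no fit called. The Il1r2 interaction, -0.10 in the chosen fit, was 0.15 in limma-voom, 0.94 on log2(FPKM + 1) with or without a filter, 0.49 on log2(FPKM + 0.1), and -0.70 to 1.07 with 1 library left out. That of Il18rap, -0.12, was 0.66 on log2(FPKM + 1) with or without a filter, 0.072 on log2(FPKM + 0.1), and -0.46 to 0.11 with 1 library left out. That of Il1r1 was 0.0083 on log2(FPKM + 1) with or without a filter. The Il1r1 genotype difference in aTreg cells was -0.025 to 0.61 with 1 library left out. The cause was not tested.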
